A study of Mus musculus with 3 samples.

Results

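At 383 H3K4me3 regions of the mouse hippocampus, the peak of the Huntington's disease model ended well short of the wild-type peak on one side while the opposite side stayed in place. These regions were picked from 2 peak lists. One came from adult male N171-82Q transgenic mice (HD library) and one from their wild-type littermates (WT library), all C57/DBA F1 hybrids. Each library was a chromatin immunoprecipitation of formaldehyde-fixed whole hippocampus pooled from 3 mice, read as single ends of 50 bp. N171-82Q mice express an N-terminal fragment of mutant huntingtin under a prion protein promoter, so the model carries the fragment in many neurons and not the full-length mutant protein. Each genotype had 1 library. Every difference below therefore describes this pair of libraries, has no replicate check and carries no p-value. Library depth is unknown, because the peak lists hold no counts of reads. The HD list held 19631 peaks and the WT list 18515. In whole tissue, a mark lost in some cells and a smaller number of cells carrying it cannot be told apart.

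H3K4me3 is laid down on nucleosomes around active and poised transcription start sites by the COMPASS family of methyltransferases, and it is removed by KDM5 demethylases. A peak is usually centred near a start site and spreads some way into the transcribed unit and the upstream flank. Peaks over genes that define a cell type tend to spread farthest.

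Peaks of both lists that overlapped by at least 1 bp were joined into regions. Of 20211 regions, 17367 held peaks of both libraries and 16873 held exactly 1 peak of each. A region was retained when one HD edge lay at least 500 bp inside the WT edge, the other edges differed by at most 100 bp, and the WT peak was at most 1.5 times as long as the HD peak. The rule was met by 383 regions, 2.27% of the 16873. These values chose the regions, so their lengths and edges are given as a description. Positions are in mouse build mm9 and counted from 1. Left means the end with the lower coordinate and says nothing of the direction of transcription, because no gene annotation of that build was used here. For the same reason the genes at these regions, and the marker genes that would check the tissue, were not analysed here.

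The longest retraction removed 1879 bp, at chr10:9616489-9622405. The HD peak there was 3970 bp wide and the WT peak 5917 bp. The stretch marked in the WT library and not in the HD library ran from 9616489 to 9618367, while the right edges differed by 68 bp. The peak had a score of 3100 in the HD list and 2864 in the WT list. The score is the authors' own value per peak and ran from 50.01 to 3233.06 in each list. A score of exactly 3100 was shared by 2184 HD peaks and 448 WT peaks. Between the libraries the score is compared only as a rank within each list, from percentile 0 (weakest) to 100. By rank this peak stood high in both, at percentile 93.0 in HD and percentile 95.7 in WT.

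The next longest retraction, of 1871 bp, was at chr13:105838699-105845881, with an HD peak of 5237 bp and a WT peak of 7183 bp. Both peaks ranked high in their lists, at percentile 93.0 in HD and percentile 92.4 in WT. The stretch at chr13:105838699-105840569 was marked only in the WT library.

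Chromosome 6 held 4 of the 12 longest retractions. The member with the widest WT peak, at chr6:136113066-136124498, had an HD peak of 9529 bp and a WT peak of 11433 bp and lost 1850 bp on the left. Its HD peak ranked at percentile 73.1 and its WT peak at percentile 90.9. Just 93 bp beyond the lost edge lay a separate region, with 1302 bp marked in HD and 2559 bp in WT. Most of that difference lay at the far end of the neighbour, where its HD edge was 1111 bp inside, while on the side facing the member it was 146 bp inside. The second, at chr6:119052871-119059966, lost 1778 bp on the left, with an HD peak of 5241 bp and a WT peak of 7096 bp. The third, at chr6:54378472-54385037, lost 1735 bp on the right and had the lowest scores of the 12, 973 in HD and 647 in WT. The fourth, at chr6:145808474-145815796, lost 1633 bp on the left, and its score was 3100 in both lists.

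On chromosome 9, the region at chr9:106269185-106277344 lost 1757 bp on the right, with 6313 bp in HD and 8160 bp in WT. A further one at chr9:121548315-121553273 lost 1530 bp on the left and kept 70.0% of its WT width. The region at chr8:130880139-130889345 lost 1750 bp on the right, and its left edges differed by 9 bp. It was 7457 bp wide in HD and 9198 bp in WT. Both peaks at chr8 and the first pair on chromosome 9 carried the shared score of 3100.

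The remaining 3 of the 12 lay on chromosomes 2, 3 and 11. At chr2:156900642-156906144 the HD peak was 3873 bp wide and the WT peak 5434 bp, although the HD peak stood at percentile 93.0 of its list and the WT peak at percentile 84.8. At chr3:57375532-57381114 the loss was 1522 bp on the left, and the HD peak again ranked higher, at percentile 85.7 against percentile 74.9 in WT. At chr11:59474688-59479770 the loss was 1492 bp on the right. Across these 12 regions the WT peaks were 4900 to 11433 bp wide, and the HD percentile was above the WT percentile in 4. Scores of 3100 or more were carried by 6 of the HD peaks and 3 of the WT peaks. That tied score ranks at percentile 93.0 in HD and percentile 98.2 in WT. A region with 3100 in both lists therefore counts as lower in HD, so this count says little about strength. With the other edge required to lie within 50 bp, 9 of the 12 no longer met the rule, and with each edge corrected by the median displacement of that edge over all regions, an alternative chosen after seeing the data, 5 did not. Of the 12, 8 retracted on the left and 4 on the right.

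**Figure D1:**
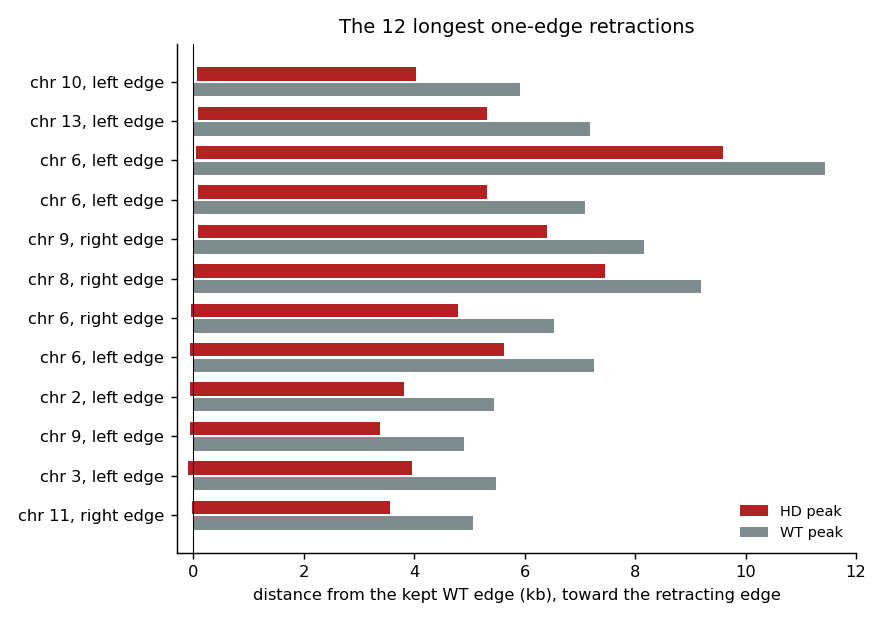
The 12 longest retractions, drawn as the HD peak (red) above the WT peak (grey) of each region, with distance in kb from the kept WT edge on the x axis. The peaks start together at the kept edge to within 100 bp, and the HD peak ends 1492 to 1879 bp earlier.

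Most retractions were shorter than these. The median was 672 bp (quartiles 563 and 891 bp), and 67 members lost 1 kb or more. The HD peaks of the members had a median width of 2830 bp and their WT peaks 3600 bp. Relative to the WT peak, the lost flank made up a median of 20.5% and at most 38.7%. At the kept edge the HD peak lay a median of 11 bp inside the WT peak. Over all 13411 edges of the 16873 regions that differed by at most 100 bp, the median was 12 bp inside. The same 100 bp limit bounds both medians, and the kept edges are among the 13411. In 115 members, 30.0%, the kept edges lay within 25 bp of each other.

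The limits of the rule cut through a continuous range. Just inside the 500 bp limit, 5 members retracted by exactly 500 bp, among them chr17:24667911-24671330 with an HD peak of 2880 bp and a WT peak of 3420 bp, and chr2:155553749-155555729 with an HD peak of 1460 bp and a WT peak of 1981 bp. Further ones were chr2:68973545-68975425, with 1371 bp in HD and 1881 bp in WT, and chr3:32513863-32516347, with 1900 bp in HD and 2485 bp in WT. Just outside it, 5 regions retracted by 499 bp, such as chr17:46815974-46819242 with 2770 bp in HD and 3214 bp in WT, and chr6:77927153-77930738 with an HD peak of 3030 bp and a WT peak of 3586 bp. Further ones were chr16:42275449-42277316, with 1309 bp in HD and 1868 bp in WT, and chr19:42163465-42166703, with an HD peak of 2671 bp and a WT peak of 3239 bp. The limit on length removed 81 further regions that met both edge criteria. Those were narrower and weaker, with a median WT width of 2631 bp and median scores of 260 in HD and 221 in WT. At that limit, with regions named after their values were seen, the member at chr1:99943356-99945126 had 1122 bp in HD and 1679 bp in WT, a WT over HD ratio of 1.496. The region at chr9:35231883-35234288 had 1602 bp in HD and 2406 bp in WT, a ratio of 1.502, and was left out.

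The 2 edges of a peak moved separately. Among the 1141 regions with exactly one HD edge at least 500 bp inside, the other edge stayed within 100 bp in 464, 40.7% (exact 95% binomial interval 37.8 to 43.6%). Over the 16873 regions, 39.4% of left edges and 40.0% of right edges lay within 100 bp. A large retraction on one side thus left the other side in place about as often as edges stayed in place anywhere. Both edges lay 500 bp or more inside in only 19 regions. Pearson's r between the left and right displacement was 0.03 over the 16873 regions, given as a description since all points come from the same pair of libraries. Intervals here and below cover counting error over regions and not variation between mice.

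**Figure D2:**
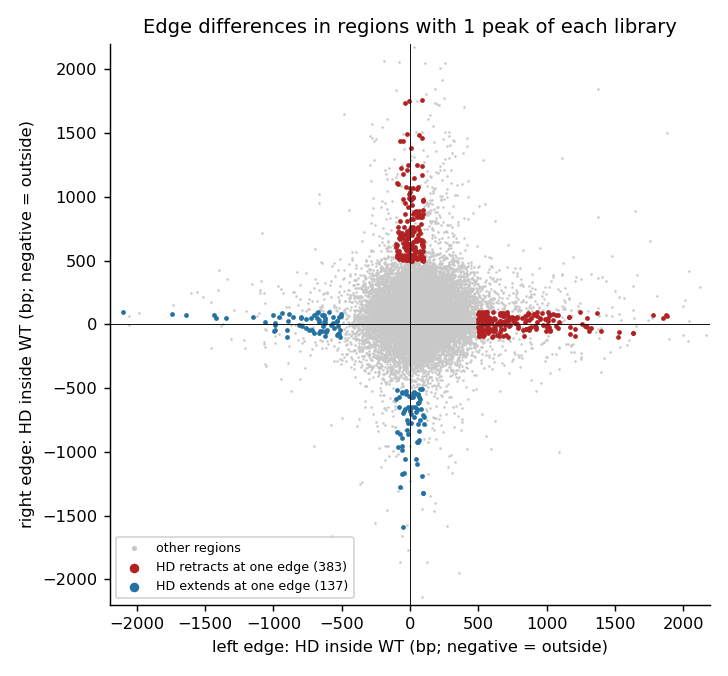
Displacement of the HD edge relative to the WT edge in bp, left edge on the x axis and right edge on the y axis, for regions with 1 peak of each library (14 lie outside the plotted range of 2200 bp). By the rule, the 383 retracting regions (red) lie on the positive arms and the 137 extending regions (blue) on the negative arms of a cross. Few points fill the corners.

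The opposite change was less frequent. With the libraries exchanged in the rule, 137 regions, 0.812% of the 16873, extended at one edge in HD. There were 2.80 retractions for each extension. Without the limit on length the counts were 464 and 174, a ratio of 2.67. Without any demand on the other edge as well they were 1141 and 419, a ratio of 2.72. HD peaks were also shorter in general, and the median displacement was 62 bp inward at left edges and 64 bp inward at right edges over the 16873 regions. When each edge was first corrected by that median, an alternative chosen after seeing the data, the counts were 317 retracting and 185 extending, a ratio of 1.71. Of the 383 members, 230 still met the rule then.

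The longest extensions were as long as the longest retractions. At chr4:125927808-125935336 the HD peak began 2100 bp before the WT peak, covering 7431 bp in HD and 5429 bp in WT. At chr11:74978227-74984886 the extension was 1742 bp, and at chr11:115668813-115677449 it was 1638 bp. Retractions outnumbered extensions in every size class, with 133 against 38 below 600 bp and 11 against 4 at 1500 bp or more. The median displacement was 672 bp for retractions and 677 bp for extensions. The sets thus differed in number more than in size.

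**Figure D3:**
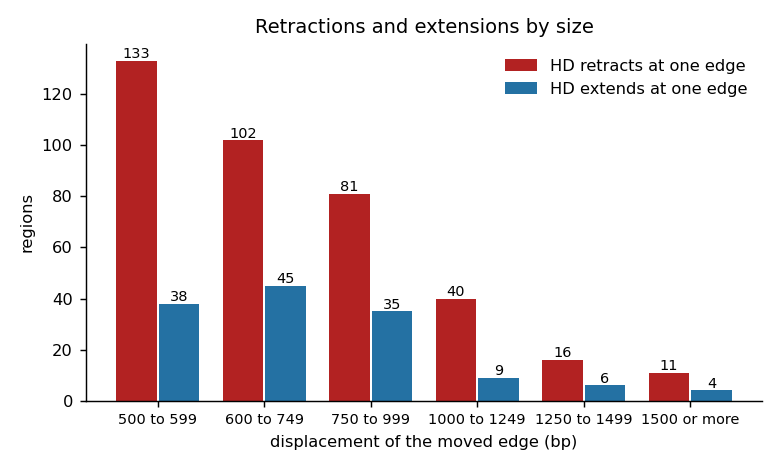
Number of regions retracting (red) and extending (blue) at one edge in HD, by displacement of the moved edge in bp. Retractions exceed extensions in each of the 6 classes, from 133 against 38 in the shortest to 11 against 4 in the longest.

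The share of regions that met the rule was higher among wider peaks, a description since the fixed shift of 500 bp and the length ratio both tie the rule to width. Among regions with a WT peak under 2 kb, 7 of 6193 retracted, 0.113%. From 2.5 to 3 kb the share was 2.04% (interval 1.55 to 2.63%), from 3.5 to 4 kb it was 6.64% (5.18 to 8.36%), and at 5 kb or more it was 9.33% (7.07 to 12.0%). Extensions, sorted by the width of the HD peak, were also most frequent in the widest class, with 1.01% (0.660 to 1.47%) from 2.5 to 3 kb and 6.21% (4.16 to 8.85%) at 5 kb or more. In the widest class the interval for retractions overlapped that for extensions, and in each class from 2 to 5 kb the intervals were apart. Without the limit on length the shares of retracting regions were 0.484% under 2 kb, 2.43% from 2.5 to 3 kb, 7.83% from 3.5 to 4 kb and 10.0% at 5 kb or more. The median retraction was then 617 bp from 2.5 to 3 kb and 1027 bp at 5 kb or more.

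**Figure D4:**
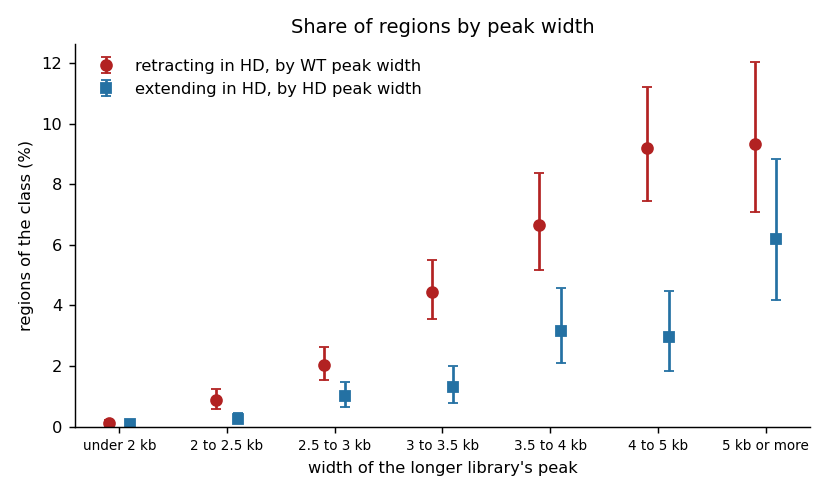
Share of regions (%) that retract at one edge in HD, by WT peak width (red circles), and that extend at one edge, by HD peak width (blue squares), with exact 95% binomial intervals. Retractions reach 9.33% and extensions 6.21% among peaks of 5 kb or more.

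Some members crossed from the broad into the ordinary range of widths, as a selection for shorter HD peaks entails. Of the 383 members, 57 were 4 kb or wider in HD and 140 in WT, so that 83 fell below 4 kb. Over all regions with 1 peak of each library, 1161 were 4 kb or wider in HD and 1514 in WT, and 457 fell below 4 kb. Summed over the members, the HD peaks were 299 kb shorter than the WT peaks. That is 7.89% of the 3782 kb by which HD peaks were shorter, summed over the 11634 regions with a shorter HD peak. Length gained in regions with a longer HD peak was not set against that sum, so it is not a net loss. Members hold a large part of it by the rule.

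Most retracting peaks were strong ones. The median member stood at percentile 77.6 of the HD list and at percentile 76.4 of the WT list. Over all regions with 1 peak of each library these medians were 55.5 in HD and 52.7 in WT. Scores of 3100 or more were carried by 113 HD peaks of the members, 29.5%, and 26 WT peaks, 6.79%. Over all regions with 1 peak of each library these shares were 14.0% in HD and 2.95% in WT. Scores below 100, close to the lowest deposited value of 50.01, were found for 7 HD peaks, 1.83%, and 4 WT peaks, 1.04%. The shares over all such regions were 6.98% in HD and 10.6% in WT. The limit on length, which removed weak and narrow regions, bears on these shares.

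High scores went with width. Among regions whose WT peak was 4 to 5 kb wide, members had median percentiles of 85.2 in HD and 83.8 in WT, and the other regions 86.1 in HD and 86.9 in WT. In each class from 2 to 5 kb members ranked somewhat below other regions in both lists. From 2 to 2.5 kb, the median percentiles of the 31 members were 43.2 in HD and 37.1 in WT, and those of the other regions were 58.6 in HD and 54.9 in WT. The 7 members under 2 kb stood higher than others, at 42.8 in HD and 26.2 in WT against 28.2 in HD and 23.7 in WT. At 5 kb or more the medians of members and others were both 93.0 in HD, the rank shared by all HD peaks with the tied score of 3100. In WT they were 91.2 for members and 92.6 for the others.

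**Figure D5:**
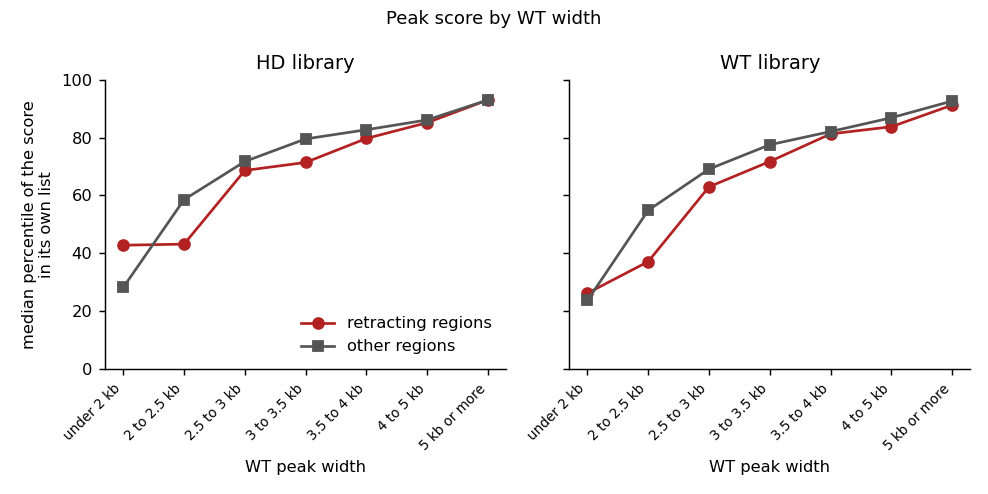
Median percentile of the peak score within the HD list (left panel) and the WT list (right panel), by WT peak width, for retracting regions (red circles) and other regions with 1 peak of each library (grey squares). From 2 to 2.5 kb the retracting regions stand lower, at 43.2 against 58.6 in HD. At 5 kb or more they stand level in HD, at the tied score, and at 91.2 against 92.6 in WT.

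The HD percentile was above the WT percentile in 203 of the 383 members, 53.0% (47.9 to 58.1%), against 62.9% of all 16873 regions. The tied score of 3100 ranks at percentile 93.0 in HD and percentile 98.2 in WT. A region with 3100 in both lists therefore counts as lower in HD. Scores of 3100 or more were more frequent among members, and how far ties shape this contrast was not tested. Members had higher WT scores, and the shift in rank varied with the WT score. Compared within quartiles of the WT score, the median change in rank, HD minus WT, was 3.16 percentile points for the 98 members of the third quartile and 2.71 for the other regions there. In the second quartile it was 4.67 for 73 members and 3.97 for the others. In the top quartile, where 2043 of 4219 regions had the tied HD score of 3100 and ranks carry less information, it was -1.96 for 193 members and -1.58 for the others. In the lowest quartile the median change was 0.73 for 19 members and 4.61 for the others. The median HD percentile there was 21.3 for both. The median WT percentile was 21.2 for members and 16.9 for the others, so the contrast lay in the WT rank within the quartile. In that quartile the WT peaks of the members were also wider, with a median of 2232 bp against 1364 bp.

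Single members went further in either direction. Those named here were chosen after their values were seen. At chr9:108685224-108690040 the right flank was 1439 bp shorter and the peak ranked at percentile 51.8 in HD and percentile 81.9 in WT. At chr1:162278419-162282911 a loss of 910 bp on the left accompanied percentiles of 52.2 in HD and 81.6 in WT. In contrast, chr12:59312076-59316780 lost 587 bp on the right while its peak ranked at percentile 98.8 in HD and percentile 72.0 in WT. The same region could thus have a shorter flank and a higher ranked peak in the HD library.

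Of the 498 WT peaks scoring 3100 or more in regions with 1 peak of each library, 26 belonged to members. Members made up 4.57% of the top quartile of the WT score. The highest WT score among the members, 3233, was at chr2:116944948-116950365, where the HD peak was 4646 bp wide and the WT peak 5418 bp. The 767 bp lost there lay on the right, at chr2:116949599-116950365, and the left edges differed by 5 bp. At chr18:46900186-46903843 the HD peak was 3109 bp wide and the WT peak 3658 bp, with a loss of 541 bp on the right and left edges 8 bp apart. At chr12:112612513-112617338 the loss was 906 bp on the left, with 3839 bp in HD and 4826 bp in WT. At chr1:183139422-183143524 the loss was 852 bp on the left, with an HD peak of 3251 bp and a WT peak of 4063 bp.

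Only 4 members had a WT score above 3100, and 22 shared that value. The widest WT peaks of these 22, apart from the 12 longest retractions, are given next, and their HD scores were 3100 too. At chr4:141089822-141095636 the retraction was 1367 bp on the left, leaving 4357 bp in HD of 5815 bp in WT. At chr12:101436809-101443267 it was 709 bp on the right. At chr1:77507148-77514284 it was 544 bp on the left, and at chr8:123010087-123017409 it was 539 bp on the right. These last 2 kept 93.4% and 92.7% of the WT width, so a loss of over 500 bp was a small part of them.

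Left and right flanks were lost in similar numbers. The left edge retracted in 200 members, 52.2% (47.1 to 57.3%), and the right edge in 183. Extensions were on the left in 68 of 137, 49.6% (41.0 to 58.3%). Left retractions had a median length of 682 bp, and right retractions one of 659 bp. Among the 67 members that lost 1 kb or more, 41 retracted on the left, 61.2% (48.5 to 72.9%), an interval that holds equal numbers.

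Members were found on all 19 autosomes and on the X chromosome. Their share of the regions with 1 peak of each library ran from 1.40% on chromosome 18, 7 of 499, to 3.53% on chromosome 12, 22 of 624 (2.22 to 5.29%). Chromosome 13 was next with 3.21% (2.05 to 4.78%). All of the autosomal intervals overlapped one another. On the X chromosome 10 of 530 regions retracted, 1.89% (0.908 to 3.44%), against 2.28% (2.06 to 2.52%) on the autosomes together. None of the 4 such regions on the Y chromosome did. Retractions outnumbered extensions on each of the 19 autosomes. Chromosome 7 had 27 retracting and 20 extending regions, and chromosome 13 had 23 and 2.

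Most members stood alone. The nearest other region lay a median of 71.0 kb away on the retracting side and 55.0 kb away on the kept side. Over all edges of regions with 1 peak of each library the median was 43.0 kb. Members of 5 kb or more had their nearer neighbour at a median of 47.8 kb, and other regions of that width at 20.5 kb. That difference varied with WT width. From 4 to 5 kb the medians were 40.3 kb for members and 24.3 kb for others. From 3.5 to 4 kb they were 28.3 kb and 27.5 kb. From 2 to 2.5 kb, the only class with members nearer, they were 16.8 kb and 21.6 kb. In 31 members, 8.09% (5.57 to 11.3%), another region lay within 5 kb of the retracting edge, and in 22, 5.74% (3.63 to 8.57%), within 5 kb of the kept edge. Among all such edges the share was 9.69%.

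Very close neighbours were few on either side, and the difference between the sides was not tested. Another region lay within 1 kb of the retracting edge in 17 members, 4.44% (2.61 to 7.01%), and within 1 kb of the kept edge in 5, 1.31% (0.425 to 3.02%), against 2.44% of all edges. Within 10 kb the counts were 46 on the retracting side and 50 on the kept side. Of the 17 neighbours, 8 had peaks of both libraries, 5 had a WT peak only and 4 had an HD peak only. All 8 with both were shorter in HD, as were 11634 of the 16873 regions. Of these 8, 2 were themselves members and so shorter by the rule. The 5 neighbours within 1 kb of a kept edge all had both, and 3 of them were shorter in HD. The regions named next were chosen after their values were seen. At chr9:27105568-27110659 the right flank retracted by 1228 bp, and a WT peak of 1695 bp with no HD counterpart began 73 bp beyond. At chr5:14024630-14027916 a retraction of 570 bp was followed after 12 bp by a WT peak of 993 bp with no HD counterpart. These WT-only peaks were weak, with scores of 66.5 and 57.1.

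Neighbours more than 1 kb away had length ratios near that of regions in general. Where such a region on the retracting side held 1 peak of each library, in 307 members, the log2 of its HD length over its WT length had a median of -0.09. On the kept side, in 319 members, it was -0.11, and over all regions with 1 peak of each library it was -0.09. Of the 383 members, 12 lay next to another member, 3.13% (1.63 to 5.41%). Members were only 2.27% of the regions with 1 peak of each library, and each had a neighbour on either side. Whether members adjoined more or less often than other regions was not tested. At chr13:8201388-8204493 and chr13:8205120-8207311, named after their values were seen, the facing flanks of neighbouring members retracted. The first lost 534 bp on its right and the second 714 bp on its left, which widened the gap between the marked stretches from both ends.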

How the data were processed

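Mouse hippocampal H3K4me3 was given as 1 deposited peak list per genotype, called by the authors on each library separately. Per the peak names in the files the caller was MACS, and no version, setting or control is given in the sources used here. Per the submitters' processing notes, SAMtools, BWA 0.5.9 and CASAVA 1.8.2 were used, with the builds NCBIM37 and mm9. The deposited score per peak is the authors' and has no unit in the files. The files give no read counts, so depth is unknown, and the input library was not used here. Scores were used as percentiles within a list, ties sharing their mean rank.

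Regions, edges and neighbours were computed with scipy 1.17.1, pandas 2.3.3 and numpy 2.4.6 in Python 3.11.15. Plots were drawn in matplotlib 3.10.9. Shares carry exact (Clopper-Pearson) 95% binomial intervals. On simulated lists, 250 of 250 one-edge retractions were recovered with their side. Those were built to meet the limits of the rule, so this checks the code only. The members, the rules for named regions and the alternatives were chosen with earlier results of these data known. Named are the 12 longest retractions, the 8 highest WT scores among the rest (ties broken by WT width), 4 regions on each side of the 500 bp limit and the 3 longest extensions. Others are marked. The planned gene lists, start site orientation and base composition were not run, because the gene table used covers GRCm38.p6 and the peaks are in mm9.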

Additional observations from a re-analysis of the deposited data

How the results depend on the processing

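Retractions outnumbered extensions under all 10 alternatives, by ratios of 1.71 to 3.45. Against 383 retracting and 137 extending regions as reported, a minimum shift of 300 bp gave 1624 and 505, one of 750 bp gave 148 and 54, an other edge within 50 bp gave 207 and 60, and one within 200 bp gave 645 and 236. When peaks scoring under 100 were removed from both lists, 374 of the 383 members remained, and with peaks within 1 kb merged 367 remained. Of 24 members named by rule, 13 no longer met it with the other edge within 50 bp, 13 with centred edges, 8 with 750 bp, 2 after merging and 1 with the minimum score. The median WT width, 3600 bp as reported, was 2815 bp with 300 bp, 4163 bp with 750 bp, 3815 bp after merging and 3787 bp with centred edges. The median retraction, 672 bp, was 392 bp with 300 bp, 978.5 bp with 750 bp, 708 bp with no limit on the length ratio and 706 bp with centred edges. The median WT percentile, 76.4, was 64.8 with 300 bp, 80.1 with 750 bp and 71.6 with no length limit. The median HD percentile, 77.6, was 66.6, 80.4 and 72.3 under the same settings and 79.96 with centred edges. The distance to the next region on the retracting side, 71.0 kb, was 52.7 kb with 300 bp and 92.9 kb with 750 bp, and on the kept side, 55.0 kb, it was 47.0 kb with 300 bp. The autosomal share, 2.28%, was 9.64% with 300 bp, 0.857% with 750 bp, 1.24% with the other edge within 50 bp, 3.83% within 200 bp, 2.77% with no length limit, 2.70% with the minimum score and 1.87% with centred edges. The X chromosome share, 1.89%, was 9.25% with 300 bp and 3.58% within 200 bp. Limits on shift, other edge and length admit other sets of regions by construction; for the other settings the cause was not tested. The share retracting on the left stayed within its interval under every alternative. The results on start sites, gene lists and base composition were not run. No paired analysis was possible because only 1 library was made per genotype. Unknown depth limits what a missing flank can show, since a peak's edge is set by where its signal passes the caller's threshold.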
